A study of Homo sapiens with 8 samples.

Results

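The genes described here are the matrix metalloproteinases (MMP), the membrane-bound ADAM proteases, the secreted ADAMTS proteases with their protease-like relatives (ADAMTSL), and the tissue inhibitors of metalloproteinases (TIMP). They were chosen by name: every protein-coding row of the deposited table whose gene symbol belonged to one of these families was taken. The rule found 63 of the 30386 genes listed, 20 MMP, 15 ADAM, 19 ADAMTS, 5 ADAMTSL and 4 TIMP genes. RNA sequencing compared 4 samples of endothelial cells (iEC) with 4 samples of retinal endothelial cells (iREC), each lettered C, D, E and F. All 8 samples were differentiated from WTC-TJP1, an established line of human induced pluripotent stem cells, so every sample shares 1 genotype, and all were taken at passage 1. The labels name no agent, dose or day for either differentiation, and they do not say whether the samples of a group were separate cultures, so the p-values measure the spread between these samples, which may be technical.

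MMPs are zinc proteases that cleave collagens and other matrix proteins; most are secreted as inactive precursors, and the membrane-type members act at the cell surface. ADAM proteases release the outer parts of membrane proteins such as growth factor precursors and Notch, while ADAMTS proteases cleave large matrix proteins including proteoglycans, procollagens, fibrillins and von Willebrand factor. TIMP proteins bind the active site of these enzymes and block it. In vessels the balance between proteases and inhibitors is known for its part in sprouting, basement membrane turnover and the release of cell surface receptors.

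The iEC libraries held 14877502 to 16971865 counts and the iREC libraries 13739364 to 15987839. A gene was tested where its counts passed edgeR's filter for low values, and it is described as changed where the Benjamini-Hochberg adjusted p of edgeR's quasi-likelihood test over all 15330 tested genes was under 0.05. All 12 endothelial markers looked at were detected, with a summed level of 7770 to 11057 CPM (counts scaled to library size) in iEC and 5319 to 11419 CPM in iREC. Of these markers CLDN5, TEK and EMCN rose, 4 fell with PECAM1 and CDH5 among them, and the median log2 fold change was 0.04. The 7 changed markers are 58.3% of the 12, where 25.0% of all tested genes changed. The marker lists held no gene specific to the retina, so that label was not checked. The 14 mural and fibroblast markers, none at 0 in every sample of a group, were summed as well. DCN was at 0 in iEC C, D and E and at 0.0716 CPM in iEC F. Their sums were 283 to 542 CPM in iEC and 1356 to 5898 CPM in iREC. Of the 12 tested, 4 rose in iREC (POSTN and TAGLN the most abundant), and RGS5 and THY1 fell. Those 6 are 50% of the tested genes of the list, and the median log2 fold change was 2.35. Without iREC F, LUM did not pass the test (adjusted p 0.0739 by edgeR). POSTN, TAGLN and CNN1 still rose in that fit, and RGS5 and THY1 still fell. Several of the log2 fold changes shrank without iREC F: COL3A1 from 3.64 to 1.63, PDGFRB from 2.45 to 0.85 and ACTA2 from 2.24 to 0.86. KRT7 was the 1 of 5 tested epithelial markers that rose, and ESRP1 was at 0 in all iEC samples. Blood markers summed to at most 47.6 CPM in any sample; PTPRC, at 0 in iEC, rose and RUNX1 fell. Of the pluripotency markers LIN28A rose and DPPA4 fell, and NANOG was at 0 in iEC. LIN28A stood at 20.5, 147, 53.7 and 482 CPM in iREC C to F, with a log2 fold change of 3.40 over all samples and 2.15 without iREC F (adjusted p 0.0242 and 0.0393 by edgeR). The library iREC F stood apart: it had the highest mural and fibroblast sum, 5898 CPM, and the highest epithelial sum, 4924 CPM, where the other iREC samples had 302 to 1118 CPM. It also had the lowest endothelial sum, 5319 CPM, and a pluripotency sum of 505 CPM led by LIN28A, against 53.3 to 173 CPM in the other iREC samples. Among the iEC samples, iEC F likewise had the highest mural and fibroblast sum, 542 CPM against 283 to 344 CPM. Its epithelial sum was also the highest in iEC, 1174 CPM against 391 to 674 CPM. The endothelial sum of iEC F was not the lowest, and its pluripotency sum was the lowest in iEC. Whether the shared letter has a part in this was not tested.

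Several RefSeq promoter windows (GRCh38.p14) are shown for members whose levels are described here. TIMP3, ADAM23 and ADAM12 were higher in iREC, ADAMTS7 was lower, and MMP10 is the member closest to MMP1 on its chromosome, and MMP1 fell most among the MMPs. Each window ends at or just before the gene model and is written 5′ to 3′ on the gene's own strand, with capitals marking matches. The searches were for the GC box, GGGCGG, on both strands. They also covered the TATA box found upstream of many regulated genes, spelled TATAAA, on both strands. The last was TGANTCA, a loose spelling of the AP-1 site that allows any base at N and reads alike on both strands. Matches are called AP-1 type here, and a match need not be a site that AP-1 binds.
TIMP3, chr22:32801455-32801700, plus strand: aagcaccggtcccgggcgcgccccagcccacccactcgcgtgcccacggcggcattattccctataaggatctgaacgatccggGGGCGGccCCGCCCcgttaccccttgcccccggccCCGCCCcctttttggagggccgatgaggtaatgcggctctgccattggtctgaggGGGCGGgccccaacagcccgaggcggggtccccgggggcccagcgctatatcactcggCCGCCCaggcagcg
ADAM23, chr2:206443282-206443531, plus strand: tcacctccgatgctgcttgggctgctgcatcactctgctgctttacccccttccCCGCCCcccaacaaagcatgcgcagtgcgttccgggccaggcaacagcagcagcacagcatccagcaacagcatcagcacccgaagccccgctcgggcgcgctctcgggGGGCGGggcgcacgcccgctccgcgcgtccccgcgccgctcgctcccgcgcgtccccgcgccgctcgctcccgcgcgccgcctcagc
ADAM12, chr10:126388478-126388727, minus strand: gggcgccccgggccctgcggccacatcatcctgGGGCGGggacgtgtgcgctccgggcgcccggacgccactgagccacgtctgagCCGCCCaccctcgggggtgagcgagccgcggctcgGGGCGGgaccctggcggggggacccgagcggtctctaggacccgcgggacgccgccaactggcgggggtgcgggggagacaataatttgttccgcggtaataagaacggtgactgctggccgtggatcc
ADAMTS7, chr15:78811465-78811714, minus strand: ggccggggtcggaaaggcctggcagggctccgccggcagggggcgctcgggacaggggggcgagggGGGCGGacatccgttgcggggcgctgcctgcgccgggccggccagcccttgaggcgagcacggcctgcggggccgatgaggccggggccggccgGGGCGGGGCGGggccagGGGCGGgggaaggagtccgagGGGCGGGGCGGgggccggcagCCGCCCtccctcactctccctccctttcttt
MMP10, chr11:102780629-102780878, minus strand: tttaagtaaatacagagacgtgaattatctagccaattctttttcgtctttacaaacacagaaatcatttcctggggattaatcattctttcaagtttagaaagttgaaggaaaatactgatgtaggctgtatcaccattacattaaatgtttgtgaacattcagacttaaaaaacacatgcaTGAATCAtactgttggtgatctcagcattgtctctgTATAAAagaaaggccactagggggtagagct

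The first 4 windows hold GC boxes, 5 in TIMP3, 2 in ADAM23, 3 in ADAM12 and 7 in ADAMTS7, and no TATA box or AP-1 type sequence. The MMP10 window is the reverse, with 1 AP-1 type sequence (TGAATCA), 1 TATA box and no GC box. Its GC content was 34.4%, against 72.0% to 80.8% in the other windows. The promoter table held 39 of the 63 members. Counting matches on either strand and allowing overlapping matches, a GC box was in the 250 bases before the start of 30 of those 39 members and of 42.3% of all 27305 promoters of that length in the table. TGANTCA was in 3 of 39 members and 6.60% of all promoters, and the TATA box in 6 of 39 members and 11.1% of all promoters. The 27305 promoters were not filtered for protein-coding genes, as the members were, so these shares may come from unlike sets. Whether they differ was not tested. A GC box was present in genes that rose and in genes that fell. A match describes these letters only.

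Of the 63 members, 44 were tested and 19 were below the filter. 21 of the 44 changed, 12 higher and 9 lower in iREC, which is 47.7% of the tested members. Over all tested genes 25.0% changed, 13.2% higher and 11.7% lower, and over tested protein-coding genes alone 27.1% did. The median log2 fold change was 0.18 over the tested members and 0.02 over all tested genes. The 2 groups did not overlap in 12 tested members with iREC above and 7 with iREC below, where 29.1% of all tested genes had no overlap. Without iREC F the counts were 13 higher and 10 lower. In that fit 4214 of all 15783 tested genes changed, against 3829 of 15330 with all samples. The ADAMTS family held the largest share of changed members, 11 of 15 tested, against 4 of 13 MMP, 4 of 10 ADAM, 1 of 3 ADAMTSL and 1 of 3 TIMP genes. Whether these shares differ between families was not tested. In bulk samples, fewer cells of a type and less RNA per cell cannot be told apart.

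**Figure D1:**
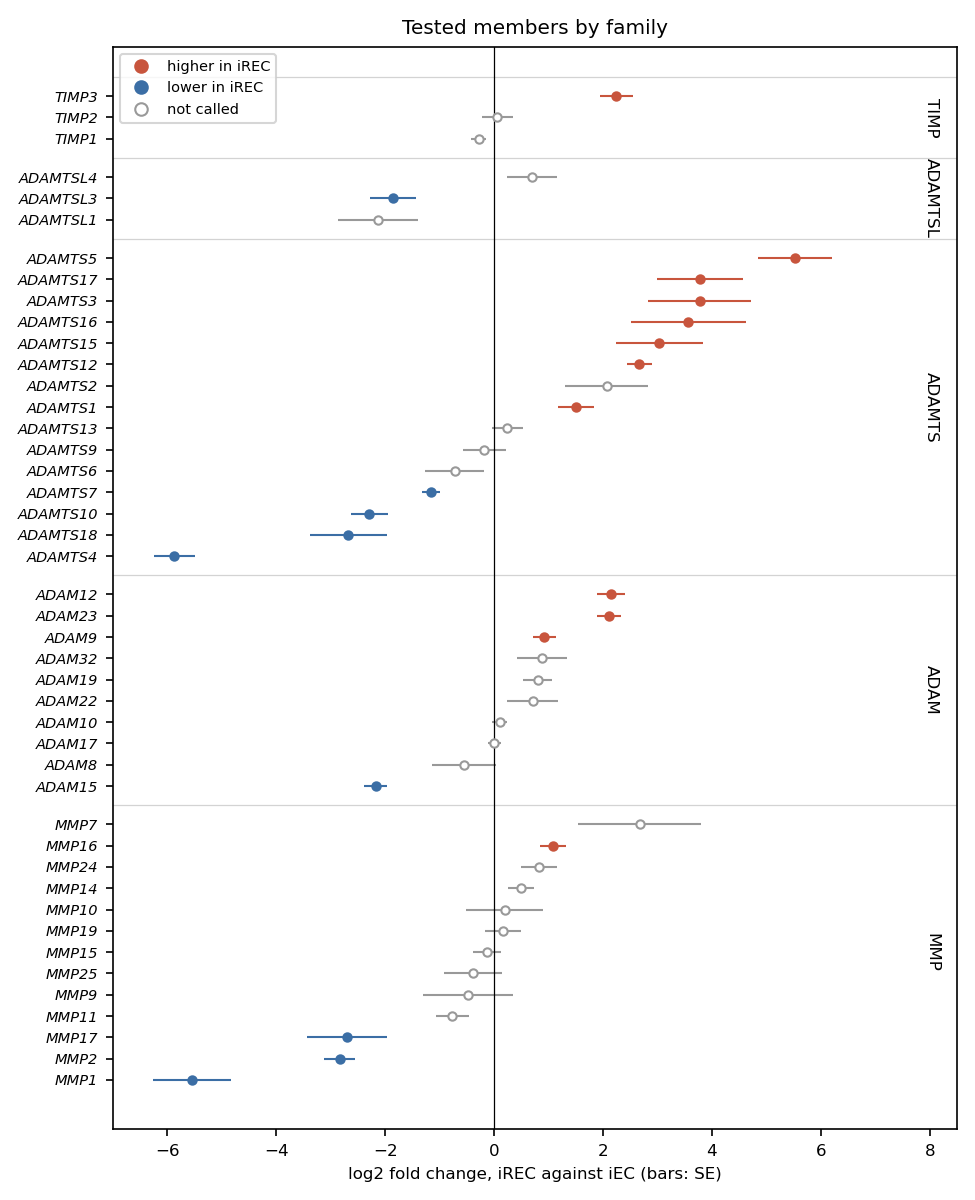
Log2 fold change of iREC against iEC (x axis) for the 44 tested members, grouped by family on the y axis, with bars for 1 standard error. Filled red points rose, filled blue points fell and open points did not pass the test. ADAMTS members spread from -5.87 for ADAMTS4 to 5.53 for ADAMTS5, and 9 of the 13 MMP members are open.

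The secreted collagenases and gelatinases are described first. MMP1, the interstitial collagenase that cuts fibrillar collagens (ENSG00000196611, chr11:102789920-102798160, minus strand), was the most abundant member per length in iEC. Its level was 3945, 2608, 9347 and 6962 CPM in iEC C, D, E and F, and 49.1, 197, 200.2 and 42.0 CPM in iREC C to F. Every iREC sample was far below every iEC sample, and within each group the levels varied several-fold. MMP1 was 46.8-fold lower in iREC, a log2 fold change of -5.55 ± 0.71 (SE, adjusted p 0.000617 by edgeR). It fell in each of the 8 fits that left out a sample.

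MMP2, the gelatinase that cuts denatured collagen and type IV collagen of basement membranes (chr16:55389700-55506691, plus strand), also fell. It stood at 64.9, 39.9, 32.9 and 53.3 CPM in iEC and at 8.44, 4.43, 5.50 and 8.38 CPM in iREC. Again no iREC sample reached the lowest iEC sample, and the log2 fold change was -2.83 ± 0.29 (SE, adjusted p 0.000203 by edgeR). MMP9, the other gelatinase, did not pass the test; its iEC levels ran from 0.83 to 17.4 CPM with iEC D highest, its iREC levels lay inside that range, from 1.83 to 6.29 CPM, and the edgeR adjusted p was 0.714.

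MMP1 lies in a cluster of MMP genes on chromosome 11, 7 of which were listed. In that cluster 3 genes were tested and only MMP1 changed, a share of 33.3% beside the 25.0% of all tested genes. MMP10, stromelysin 2, lies 9292 bases from MMP1. Its level was 3.77, 4.11, 22.4 and 5.37 CPM in iEC and 5.50, 12.8, 19.3 and 3.21 CPM in iREC. The groups overlapped throughout, with a difference of 0.20 ± 0.70 on the log2 scale (SE, adjusted p 0.869 by edgeR). MMP7, matrilysin, was at most 1.0 CPM in iEC and at 0.0654, 4.85, 2.63 and 1.90 CPM in iREC C to F, a log2 fold change of 2.67 ± 1.13 (SE) that did not pass the test (adjusted p 0.115 by edgeR). The remaining cluster genes, MMP3, MMP8, MMP12 and MMP13, were below the filter.

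MMP14, the membrane-type collagenase that also activates the MMP2 precursor (chr14:22836557-22849027, plus strand), was at similar levels in both groups. It stood at 620, 726, 642 and 884 CPM in iEC C, D, E and F and at 1394, 935, 1077 and 624 CPM in iREC C to F. The samples iREC C, D and E were above every iEC sample and iREC F was next to the lowest iEC sample. The log2 fold change was 0.49 ± 0.24 (SE), which did not pass the test (adjusted p 0.162 by edgeR). Without iREC F it was 0.66 and did (adjusted p 0.0308 by edgeR; the range over all alternatives was 0.0308 to 0.386).

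The 6 membrane-type MMPs were all tested, and 2 changed in opposite directions, a share of 33.3% beside the 25.0% of all tested genes. MMP16 (chr8:88032009-88328025) rose from 28.6, 27.6, 38.2 and 25.3 CPM in iEC to 92.1, 57.0, 63.5 and 41.1 CPM in iREC. The lowest iREC sample, iREC F, was just above the highest iEC sample, and the log2 fold change was 1.08 ± 0.24 (SE, adjusted p 0.0108 by edgeR). MMP17, which is held to the membrane by a lipid anchor, was low: 2.93, 1.07, 3.85 and 5.73 CPM in iEC and 0.327, 0.500, 0.0611 and 1.18 CPM in iREC. Here iREC F overlapped with iEC D. MMP17 had a log2 fold change of -2.70 ± 0.73 (SE, adjusted p 0.0252 by edgeR), and it did not pass the test without iEC E (0.0600), iEC F (0.0602), iREC C (0.0622) or iREC D (0.0717), with a range of 0.000995 to 0.0717 over all alternatives. Without iREC F it was 11.4-fold lower, against 6.51-fold with all samples. MMP15 was at 93.9 ± 31.7 CPM (SD, n = 4) in iEC and 85.8 ± 13.0 CPM in iREC and did not pass the test (log2 fold change -0.13 ± 0.25, adjusted p 0.747 by edgeR).

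**Figure D2:**
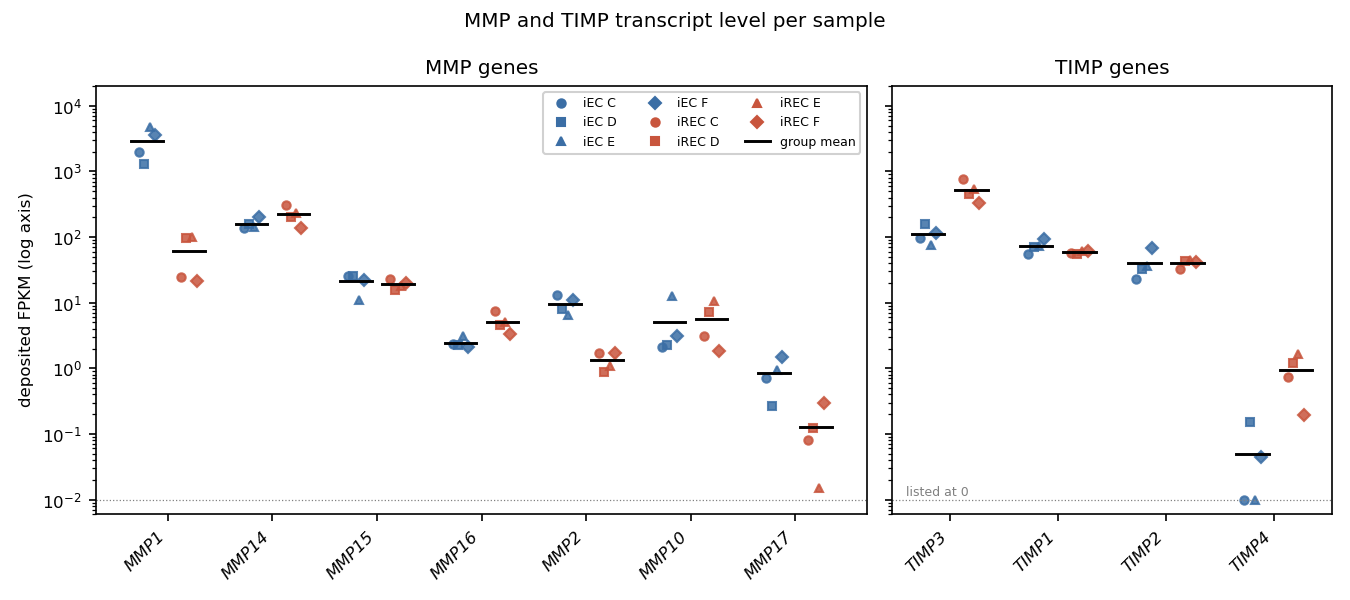
Deposited FPKM (fragments scaled to gene length and library size, log axis) of 7 MMP genes and the 4 TIMP genes in each sample; marker shapes give the sample letter and black lines the group mean. MMP1 lies near 2891 in iEC and 60.7 in iREC, TIMP3 near 111 and 521, and MMP14, MMP15, TIMP1 and TIMP2 overlap between groups.

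TIMP3 was the inhibitor that rose. It binds to the matrix, inhibits ADAM17 and the aggrecanases as well as MMPs, and is the gene mutated in Sorsby fundus dystrophy, a disease of the retina (ENSG00000100234, chr22:32801701-32863043, plus strand). TIMP3 was at 455, 740.3, 354 and 514 CPM in iEC C, D, E and F, and at 3554, 2136, 2581 and 1507 CPM in iREC C to F. The lowest iREC sample, iREC F, was above the highest iEC sample, iEC D. TIMP3 was 4.74-fold higher in iREC, a log2 fold change of 2.24 ± 0.31 (SE, adjusted p 0.000882 by edgeR), and it rose in each fit that left out a sample.

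TIMP1 and TIMP2 did not pass the test. TIMP1, a weak inhibitor of membrane-type MMPs (chrX:47582313-47586789, plus strand), was at 86.7, 112, 113 and 138 CPM in iEC and at 90.5, 86.5, 96.7 and 95.5 CPM in iREC (log2 fold change -0.29 ± 0.14, SE, adjusted p 0.178 by edgeR). TIMP2, which takes part in the activation of MMP2 by MMP14, was at 133, 184, 204 and 369 CPM in iEC and at 186, 248, 257 and 236 CPM in iREC (log2 fold change 0.06 ± 0.28, SE, adjusted p 0.901 by edgeR). For both genes all iREC samples lay within the iEC range, apart from the TIMP1 level of iREC D, which was just under it. TIMP4 was below the filter, with 0, 4, 0 and 1 counts in iEC and 19, 28, 46 and 5 counts in iREC; the authors' deposited table gives it a log2 fold change of 4.29 and an adjusted p of 0.000268. In the fits without iEC C, iEC D, iEC E, iEC F or iREC F, TIMP4 passed the filter and the edgeR test, so that 2 TIMP genes changed.

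Levels of different genes were compared per length, with the deposited FPKM. MMP1 made up 91.9% ± 4.28 (SD, n = 4) of the summed MMP level in iEC and 18.2% ± 11.1 in iREC. MMP14 made up 6.28% ± 3.21 and 69.5% ± 10.2 of it. The most abundant MMP transcript was thus a secreted collagenase in every iEC sample and a membrane-type collagenase in every iREC sample. The summed MMP level was 3095 ± 1545 FPKM in iEC and 319 ± 85.7 FPKM in iREC. With MMP1 left out of the sum, the values were 204 ± 31.5 and 259 ± 72.2 FPKM, and the groups overlapped.

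The summed TIMP level was 223 ± 51.2 FPKM (SD, n = 4) in iEC and 622 ± 178 FPKM in iREC, with TIMP3 taking 49.7% ± 9.67 and 82.7% ± 5.51 of it. The ratio of summed MMP to summed TIMP FPKM was 12.3, 5.77, 26.4 and 14.1 in iEC C, D, E and F and 0.435, 0.612, 0.574 and 0.451 in iREC. MMP transcripts outnumbered TIMP transcripts per length in all iEC samples and in no iREC sample. With MMP1 left out, the MMP sum was above the TIMP sum in iEC C only. The MMP sums without MMP1 were then 183, 208, 179 and 248 FPKM in iEC C, D, E and F. The TIMP sums of the same samples were 175, 261, 184 and 274 FPKM. The ratio of MMP14 to the TIMP sum was 0.725 ± 0.0773 in iEC and 0.354 ± 0.0204 in iREC, also without overlap. The ratio of MMP14 to TIMP2 was 3.02 to 5.90 in iEC samples and 3.34 to 9.45 in iREC samples, so these overlapped. These sums weigh transcripts and not active enzyme, and no test was made on them.

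**Figure D3:**
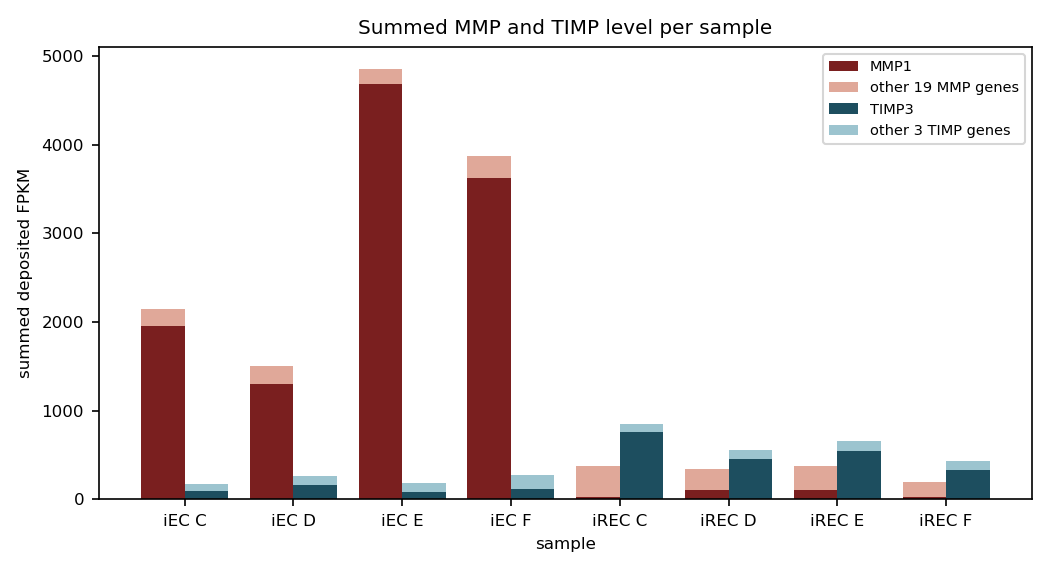
Summed deposited FPKM per sample (y axis, from 0) of the 20 MMP genes (left bar, MMP1 in dark red) and the 4 TIMP genes (right bar, TIMP3 in dark blue). The MMP bars of iEC, 1505.5 to 4861 FPKM, are mostly MMP1, and the TIMP bars of iREC, 428 to 849.7 FPKM, are mostly TIMP3.

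Genes that activate MMPs or inhibit them by other routes were read from a list of 16, all tested; 2 rose and 4 fell, which is 37.5% of the list where 25.0% of all tested genes changed. The median log2 fold change was -0.25, against 0.02 over all tested genes. PLAT and SERPINE2 rose. PLAT, the tissue plasminogen activator, went from 25.4 ± 14.2 CPM (SD, n = 4) to 196 ± 64.8 CPM (adjusted p 0.00138 by edgeR), and SERPINE2, a serpin that inhibits plasminogen activators, from 25.4 ± 12.3 to 66.4 ± 32.4 CPM (adjusted p 0.0381 by edgeR, and 0.074 without iREC F, where it did not pass). A2M, a broad protease inhibitor of plasma, fell from 236 ± 41.5 to 22.2 ± 10.5 CPM (adjusted p 0.000105 by edgeR). PLAU, the urokinase that turns plasminogen into plasmin, fell from 206 ± 132.7 to 14.8 ± 13.2 CPM (adjusted p 0.00538 by edgeR). PLAUR, its receptor, and SERPINB2 were the other genes that fell.

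A list of 12 AP-1 and ETS transcription factors known to act on MMP promoters had 9 changed genes, 3 higher and 6 lower, a share of 75% beside the 25.0% of all tested genes, and a median log2 fold change of -0.99. JUN, a component of AP-1, was 349 ± 57.8 CPM (SD, n = 4) in iEC and 102 ± 13.9 CPM in iREC (adjusted p 9.87e-05 by edgeR), and JUND fell from 99.9 ± 13.1 to 49.4 ± 7.20 CPM (adjusted p 0.00105 by edgeR). ETS2 rose from 244 ± 50.3 to 468 ± 142 CPM (adjusted p 0.0234 by edgeR) and FOSL2 from 70.2 ± 8.67 to 136 ± 40.4 CPM (adjusted p 0.00948 by edgeR). Whether these levels bear on the MMP genes was not tested.

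In the ADAM family 10 of 15 genes were tested, 3 rose and 1 fell. That is 40% of those tested, where 25.0% of all tested genes changed. ADAM15, which carries an integrin-binding disintegrin domain and is found at endothelial junctions (ENSG00000143537, chr1:155050566-155062775, plus strand), was the gene that fell. Its level was 540.2, 549.7, 588 and 678 CPM in iEC C, D, E and F and 195, 110.0, 109.7 and 107 CPM in iREC. All iREC samples were well below all iEC samples, and iREC C was the highest of them. The log2 fold change was -2.17 ± 0.22 (SE, adjusted p 0.000174 by edgeR), 4.51-fold lower.

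ADAM23, an adhesion protein of the family without an active protease site (chr2:206443539-206621130, plus strand), rose. It stood at 29.5, 41.3, 52.5 and 59.7 CPM in iEC and at 204, 218, 213 and 153 CPM in iREC, without overlap. The log2 fold change was 2.11 ± 0.22 (SE, adjusted p 0.000248 by edgeR). ADAM12, a protease that cuts insulin-like growth factor binding proteins (chr10:126012381-126388455, minus strand), rose from 15.1, 13.7, 15.4 and 14.8 CPM to 39.0, 61.8, 60.5 and 101 CPM. The iEC samples lay close together and iREC F was the highest sample; the log2 fold change was 2.15 ± 0.26 (SE, adjusted p 0.00046 by edgeR), and 1.86 without iREC F.

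ADAM9, a sheddase of several growth factor precursors (chr8:38996869-39105144, plus strand), was at 239, 234, 390.3 and 397 CPM in iEC and at 482, 636, 589.9 and 677 CPM in iREC. It did not overlap between groups, and the log2 fold change was 0.92 ± 0.21 (SE, adjusted p 0.0126 by edgeR). It did not pass the test without iREC E and iREC F together (0.0803), the highest of its alternatives. Per length, ADAM15 was the leading ADAM transcript in iEC, with 48.7% ± 0.994 (SD, n = 4) of the summed ADAM FPKM, and held 10.2% ± 3.89 in iREC. ADAM9 held 24.5% ± 5.07 in iEC and led in iREC with 43.8% ± 4.09. The summed ADAM level itself was 183 ± 25.7 FPKM in iEC and 193 ± 13.3 FPKM in iREC, and the groups overlapped.

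The main sheddases ADAM10 and ADAM17 did not pass the test. ADAM10, which cuts Notch, VE-cadherin and other surface proteins (chr15:58588807-58749978, minus strand), was at 289 ± 42.5 CPM (SD, n = 4) in iEC and 310.3 ± 29.1 CPM in iREC (log2 fold change 0.10 ± 0.14, adjusted p 0.616 by edgeR). ADAM17, the TNF converting enzyme (chr2:9488486-9556732, minus strand), was at 65.0, 81.5, 64.3 and 71.7 CPM in iEC and 69.8, 69.6, 76.8 and 67.8 CPM in iREC. All iREC values of ADAM17 lay inside the iEC range, and the log2 fold change was 0.01 ± 0.11 (SE, adjusted p 0.971 by edgeR). In GENCODE, 12.3% of its exon bases overlap IAH1 on the opposite strand, a gene at 19.5 CPM; whether counting used the strand is not given in the sources used here. ADAM19 was at 114 ± 37.0 and 198 ± 51.5 CPM with no overlap between groups, and did not pass the test here (log2 fold change 0.80 ± 0.27, SE, adjusted p 0.0582 by edgeR).

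Genes listed as partners of ADAM10 and ADAM17, some of which guide these proteases to the surface, were read separately. Of the 11 genes on this list (iRhom proteins, tetraspanins and others), 10 were tested, 1 rose and 5 fell, with a median log2 fold change of -0.52. Those 6 are 60% of the tested genes of the list, against 25.0% of all genes tested. TSPAN14, a tetraspanin that carries ADAM10 to the surface, fell from 347 ± 57.5 to 178 ± 16.3 CPM (SD, n = 4, adjusted p 0.00145 by edgeR). FRMD8, which stabilises the iRhom complex of ADAM17, fell from 108 ± 31.1 to 72.7 ± 3.47 CPM (adjusted p 0.0463 by edgeR, and 0.0618 without iREC F). RHBDF1 and RHBDF2, the iRhom genes, and TSPAN15 fell as well, RHBDF1 with an adjusted edgeR p of 0.034 that was 0.0646 without iREC F. PACSIN3 rose from 6.98 ± 1.57 to 24.9 ± 14.6 CPM (adjusted p 0.00823 by edgeR). It is neither an iRhom nor a tetraspanin gene, and its tie to ADAM10 or ADAM17 was not checked.

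Of 23 genes whose products ADAM10 or ADAM17 are known to shed, 19 were tested, 3 rose and 5 fell (42.1%, where 25.0% of all tested genes changed), and the median log2 fold change was -0.03. TNFRSF1B, a TNF receptor, rose from 42.9 ± 31.1 to 207 ± 43.8 CPM (SD, n = 4, adjusted p 0.00832 by edgeR), and NOTCH3 rose from 7.79 ± 3.95 to 58.1 ± 39.5 CPM (adjusted p 0.00367 by edgeR). The NOTCH3 level was 48.5, 36.3, 31.3 and 116 CPM in iREC C to F, highest in iREC F, and its log2 fold change was 2.90 over all samples and 2.31 without iREC F (adjusted p 0.0031 by edgeR). APP, the amyloid precursor, fell from 1983 ± 346 to 1374 ± 150.1 CPM (adjusted p 0.0398 by edgeR, and 0.076 without iREC F). CD44, the hyaluronan receptor, fell from 300.2 ± 106.6 to 51.3 ± 15.3 CPM (adjusted p 0.000458 by edgeR). The list is not complete: CDH5, the gene of VE-cadherin, was read with the endothelial markers, where it fell.

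The ADAMTS family had 15 tested members, of which 7 rose, 4 fell and 4 did not pass the test, with a median log2 fold change of 1.5. The changed share was 73.3%, beside 25.0% of all tested genes. The proteoglycan-cleaving ADAMTS genes held both of the largest differences of the family. ADAMTS4, an aggrecanase (ENSG00000158859, chr1:161184308-161199056, minus strand), was at 28.5, 20.2, 46.5 and 48.4 CPM in iEC and at 0.785, 0.428, 0.550 and 0.655 CPM in iREC. Every iREC sample was under 1 CPM. ADAMTS4 was 58.4-fold lower, a log2 fold change of -5.87 ± 0.37 (SE, adjusted p 2.14e-05 by edgeR).

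ADAMTS5, the other main aggrecanase (ENSG00000154736, chr21:26917912-26966513, minus strand), went the opposite way. It was at 0.325, 0.253, 0.414 and 2.0 CPM in iEC C, D, E and F and at 61.6, 23.7, 23.8 and 26.9 CPM in iREC. The iEC samples were near or under 2 CPM and no iREC sample was under 23 CPM. ADAMTS5 rose by 5.53 ± 0.67 on the log2 scale (SE, adjusted p 0.000478 by edgeR), 46.1-fold higher, and 99.6-fold higher without iEC F.

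ADAMTS1, a proteoglycanase known to inhibit vessel sprouting (chr21:26835747-26845409, minus strand), lies 72503 bases from ADAMTS5 and also rose. Its level was 27.0, 22.2, 29.4 and 17.5 CPM in iEC and 61.5, 54.0, 38.7 and 119 CPM in iREC. No overlap was seen, and iREC F was the highest sample. The log2 fold change was 1.5 ± 0.33 (SE, adjusted p 0.00995 by edgeR), and 1.09 without iREC F.

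ADAMTS9, a versican-cleaving protease (chr3:64515654-64688000, minus strand), was the most abundant ADAMTS transcript per length in both groups. It was at 478, 769.5, 278 and 346 CPM in iEC and 721, 309, 372 and 251 CPM in iREC, fully overlapping (log2 fold change -0.18 ± 0.39, SE, adjusted p 0.773 by edgeR). The sign turned to 0.16 without iEC D. ADAMTS15, another versican-cleaving member, was at 2.86, 1.20, 3.55 and 6.51 CPM in iEC and 8.11, 15, 13.1 and 79.2 CPM in iREC. The sample iREC F was far above the other iREC samples, whose lowest value was just above the highest iEC value. ADAMTS15 rose by 3.03 ± 0.80 on the log2 scale (SE, adjusted p 0.0218 by edgeR), 8.18-fold, and 3.41-fold without iREC F (adjusted p 0.0262 by edgeR). It did not pass the test without iEC C (0.0629) or iEC E (0.0626), and its adjusted p ran from 0.00369 to 0.0885 over all alternatives.

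ADAMTS7 and ADAMTS12 are close relatives that both cut cartilage oligomeric matrix protein, and they changed in opposite directions. ADAMTS12 (chr5:33523535-33892192, minus strand) was at 36.0, 41.7, 39.5 and 44.2 CPM in iEC and at 339, 217.5, 304 and 164 CPM in iREC. All iREC samples were above all iEC samples, which lay within a narrow range. ADAMTS12 had a log2 fold change of 2.67 ± 0.23 (SE, adjusted p 8.48e-05 by edgeR), 6.34-fold higher. ADAMTS7 (chr15:78759203-78811431, minus strand) was at 86.0, 65.8, 71.4 and 96.2 CPM in iEC and 40.9, 29.7, 37.4 and 35.0 CPM in iREC, again with no overlap, a log2 fold change of -1.16 ± 0.16 (SE, adjusted p 0.000884 by edgeR). The table lists 3 ADAMTS7 pseudogenes, at most 2.36 CPM in any sample, and reads may have been split between these copies and ADAMTS7. Per length, ADAMTS12 held 6.01% ± 1.36 (SD, n = 4) of the summed ADAMTS FPKM in iEC and 28.5% ± 7.44 in iREC, and ADAMTS9 held 59.3% ± 13.8 and 40.3% ± 10.8.

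**Figure D4:**
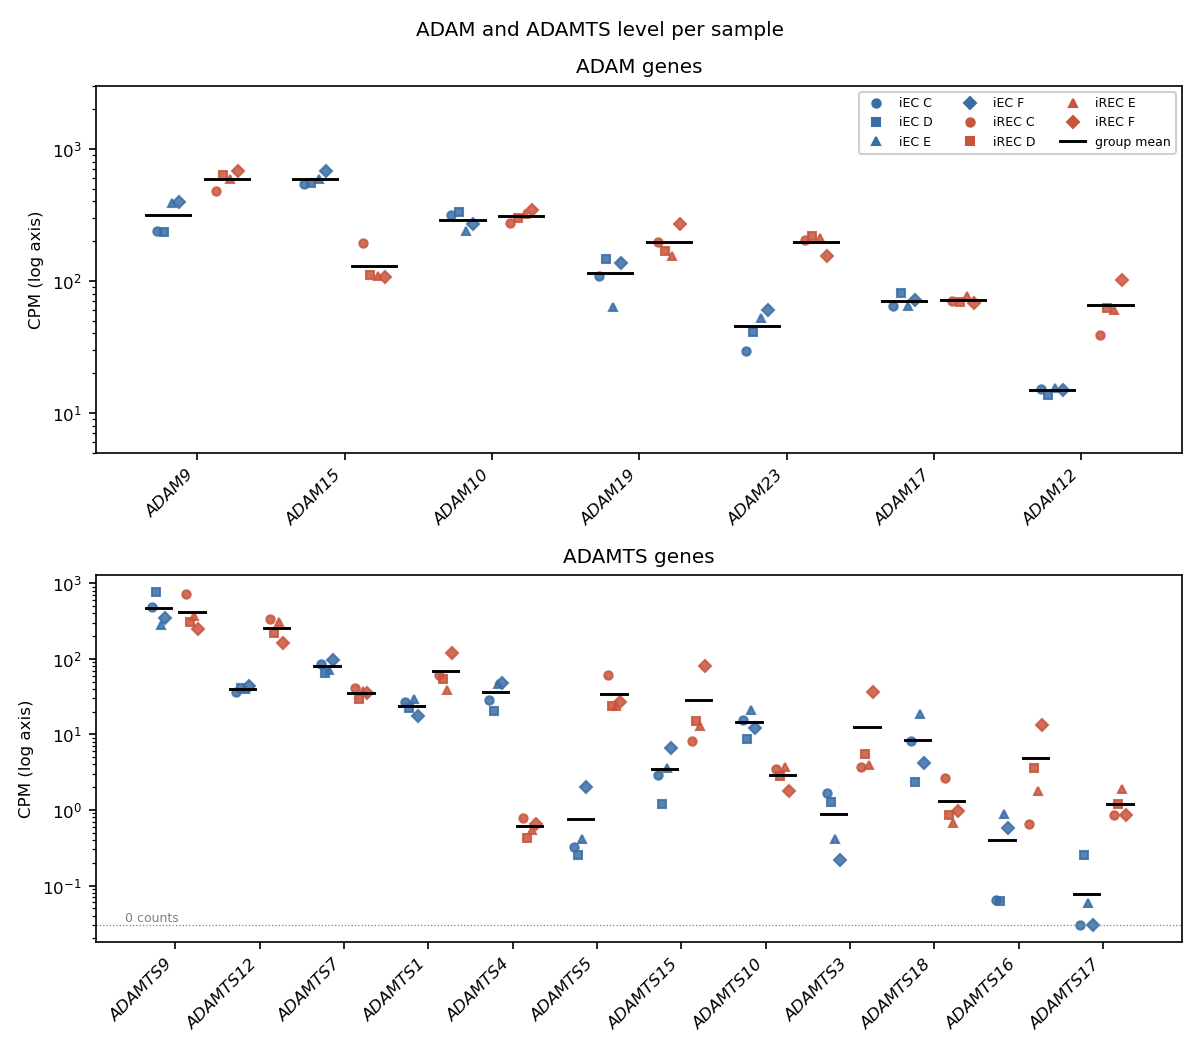
CPM (log axis) of 7 ADAM genes (top) and 12 ADAMTS genes (bottom) in each sample, with marker shapes for the sample letter and black lines for the group mean. ADAM15 and ADAMTS4 are lower in all iREC samples, ADAM23, ADAM12, ADAMTS12 and ADAMTS5 are higher in all of them, and iREC F lies far above the other iREC samples for ADAMTS15, ADAMTS3 and ADAMTS16.

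The procollagen-processing member ADAMTS3, which also matures the lymphatic growth factor VEGFC, was at 1.69, 1.26, 0.414 and 0.215 CPM in iEC and 3.66, 5.57, 3.91 and 36.4 CPM in iREC (chr4:72280969-72569386, minus strand). All iREC samples were above all iEC samples, and iREC F was far above the rest. It rose by 3.77 ± 0.95 on the log2 scale (SE, adjusted p 0.0181 by edgeR), 13.7-fold, and 4.83-fold without iREC F (adjusted p 0.0216 by edgeR). It did not pass the test without iEC E (0.0553), and its adjusted p ran from 0.00644 to 0.0632 over all alternatives. ADAMTS2, a related procollagen N-proteinase, was at 0.652 ± 0.616 and 2.73 ± 1.57 CPM (SD, n = 4) and did not pass the test (adjusted p 0.0773 by edgeR).

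Members that associate with fibrillin microfibrils also split. ADAMTS10 (chr19:8580242-8610735, minus strand) fell from 15.7, 8.79, 21.1 and 12.2 CPM in iEC to 3.53, 2.78, 3.66 and 1.77 CPM in iREC, with no overlap and a log2 fold change of -2.29 ± 0.34 (SE, adjusted p 0.00131 by edgeR). ADAMTS17 (chr15:99971589-100342005, minus strand) had 0, 4, 1 and 0 counts in iEC and 0.851, 1.21, 1.89 and 0.852 CPM in iREC. It rose (adjusted p 0.0076 by edgeR), but its fitted log2 fold change of 3.78 ± 0.79 (SE) rests on few iEC reads and was 5.35 without iEC D. ADAMTS6 was at 4.92 ± 2.39 and 2.98 ± 1.57 CPM (SD, n = 4) and did not pass the test (adjusted p 0.368 by edgeR).

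ADAMTS16 and ADAMTS18, close relatives with few known substrates, changed in opposite directions at low levels. ADAMTS16 (chr5:5140330-5320304, plus strand) was at 0.0650, 0.0632, 0.888 and 0.573 CPM in iEC and at 0.654, 3.57, 1.77 and 13.3 CPM in iREC, with iREC C inside the iEC range and iREC F highest. The log2 fold change was 3.57 ± 1.06 (SE, adjusted p 0.0356 by edgeR), 11.9-fold; it was 20.4-fold without iEC E and 4.90-fold without iREC F. It did not pass the test without iEC C (0.0862), iEC D (0.0747), iEC F (0.0667), iREC D (0.0638) or iREC F (0.0810), with a range of 0.000968 to 0.165 over all alternatives.

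ADAMTS18 (chr16:77247813-77435114, minus strand) was at 8.13, 2.34, 18.7 and 4.15 CPM in iEC and 2.68, 0.856, 0.672 and 0.983 CPM in iREC, where iREC C overlapped with iEC D. The log2 fold change was -2.68 ± 0.70 (SE, adjusted p 0.022 by edgeR), 6.39-fold lower; it was 3.74-fold lower without iEC E and 9.92-fold lower without iREC C. It did not pass the test without iEC E (0.0588), iREC D (0.0682) or iREC E (0.0636), and its adjusted p ran from 0.000238 to 0.155 over all alternatives.

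ADAMTS13, the protease that trims von Willebrand factor (chr9:133414358-133459402, plus strand), was low in both groups, 2.66 ± 0.660 CPM (SD, n = 4) in iEC and 3.14 ± 0.724 CPM in iREC, and did not pass the test (log2 fold change 0.24 ± 0.29, adjusted p 0.579 by edgeR). Its substrate gene VWF was at 178 ± 69.8 and 462 ± 217 CPM, with an adjusted edgeR p of 0.0506. In a list of 18 substrates and partners of ADAMTS and ADAMTSL proteins, 14 were tested, 3 rose and 2 fell, or 35.7% beside 25.0% of all tested genes, and the median log2 fold change was 0.71. THBS1, a matrix glycoprotein, rose from 1480.0 ± 302 to 4460.3 ± 1540 CPM (adjusted p 0.00359 by edgeR), and FBN1, which encodes fibrillin 1, from 73.9 ± 27.8 to 356 ± 76.6 CPM (adjusted p 0.000416 by edgeR). LTBP2, a microfibril protein, fell from 612 ± 218 to 42.3 ± 10.2 CPM (adjusted p 5.09e-05 by edgeR), and BCAN, a proteoglycan at low level, from 1.29 ± 0.246 to 0.372 ± 0.222 CPM (adjusted p 0.0213 by edgeR).

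ADAMTSL proteins resemble ADAMTS proteases but lack the protease domain. ADAMTSL3 (chr15:83654086-84039842, plus strand) fell from 1.56, 2.28, 1.60 and 1.36 CPM in iEC to 0.654, 0.500, 0.183 and 0.524 CPM in iREC (log2 fold change -1.86 ± 0.42, SE, adjusted p 0.0112 by edgeR). The groups did not overlap, and ADAMTSL3 did not pass the test without iREC E and iREC F together (0.0653). ADAMTSL1 was at 10.4, 10.8, 35.2 and 21.7 CPM in iEC and 0.851, 3.50, 1.89 and 11.6 CPM in iREC C to F. Only iREC F reached the iEC range. With all samples the log2 fold change of -2.13 ± 0.74 (SE) did not pass the test (adjusted p 0.0642 by edgeR), and without iREC F it was -3.24 and passed (adjusted p 0.00511 by edgeR, in a range of 0.00511 to 0.167 over all alternatives). ADAMTSL4, a microfibril-associated member, was at 6.23 ± 3.07 and 10.1 ± 5.89 CPM (SD, n = 4) and did not pass the test (adjusted p 0.312 by edgeR).

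The library iREC F moved with several of the rises. Among the 12 members that rose, it was the highest iREC sample for 6 and the lowest for 4. ADAMTS3, ADAMTS16 and ADAMTS15 stood 8.31, 6.66 and 6.57 times above the mean of the other iREC samples in it, and TIMP3 and ADAMTS12 stood at 0.547 and 0.571 times that mean. The mural and fibroblast marker sum of iREC F, 5898 CPM, compares with 1356 to 2133 CPM in the other iREC samples, and its part in the ADAMTS3, ADAMTS15 and ADAMTS16 results was not tested. Without iREC F, ADAMTS3 and ADAMTS15 rose and ADAMTS16 did not pass the test.

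**Figure D5:**
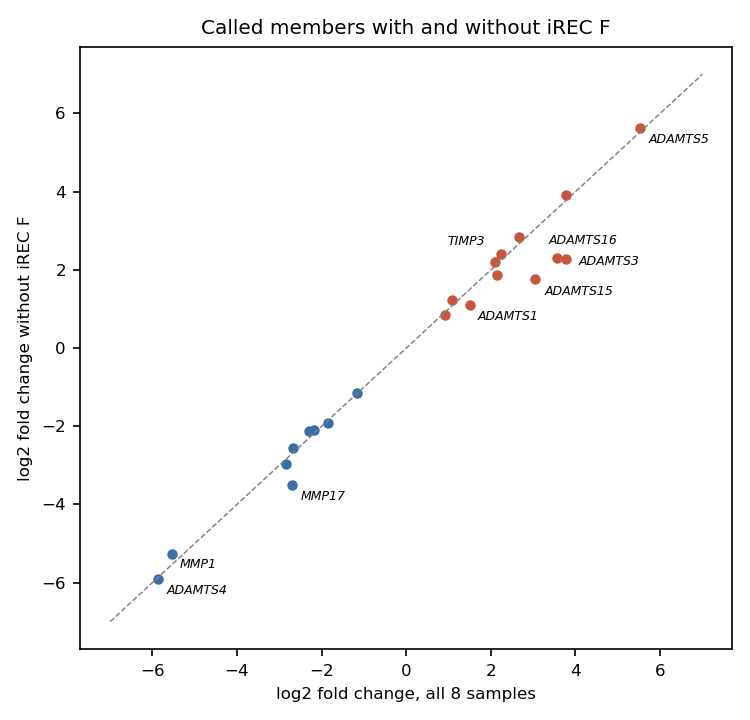
Log2 fold change of the 21 changed members with all 8 samples (x axis) and without iREC F (y axis); the dashed line marks equal values, red points rose and blue points fell with all samples. ADAMTS3, ADAMTS15 and ADAMTS16 lie below the line, at 2.27, 1.77 and 2.29 without iREC F, and MMP1, ADAMTS4, ADAMTS5 and TIMP3 lie near it.

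In 16 of the 21 changed members the call was the same in all 8 fits that left out a sample, and the other 5 are those named above (MMP17, ADAMTS3, ADAMTS15, ADAMTS16 and ADAMTS18). The authors' deposited table lists 27 members with an adjusted p under 0.05, where 16.3% of all listed genes have one. It includes 20 of the 21 genes changed here, all with the same sign, and gives no p for ADAMTS3. A further 3 did not pass the test here (ADAM19, ADAMTS2 and ADAMTSL1), and 4 were below the filter (TIMP4, ADAM33, ADAM11 and ADAM28). ADAM33 had 0.262, 2.78, 0.794 and 7.27 CPM in iREC C to F, highest in iREC F, and at most 0.325 CPM in iEC; it was below the filter without iREC F as well.

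The 19 members below the filter included 7 with at most 3 counts in every sample, a floor that corresponds to 0.178 to 0.215 CPM in iEC and 0.183 to 0.214 CPM in iREC and covers counting error only. They were not detectable at this depth, which is not the same as absent. For 9 members, exons overlapped an expressed gene of at least 5% of their own level, among them MMP24 (MMP24OS, 40.8 CPM against 4.71 CPM for MMP24) and MMP11 (CHCHD10, 63.7 CPM against 2.96 CPM); all 9 did not pass the test or were below the filter, and their levels are uncertain.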

How the data were processed

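Messenger RNA selected with poly-T beads was sequenced from 8 samples, with dUTP in the second cDNA strand, per the labels' protocols. The submitters' processing notes name fastp, HISAT2 2.0.5 and hg38; the counting program, its strand setting and the annotation are not given in the sources used here. Gene starts and ends of all 63 members equal those of GENCODE 29, and coordinates are on that build (GRCh38). The authors deposited, per the file headers, whole-number read counts per gene, a normalized signal (the count times 1 factor per sample), FPKM, log2 fold changes and p-values. The depth per sample and the floor of 3 counts are in the text above.

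Counts were filtered with filterByExpr, scaled by TMM and tested with edgeR 4.0.16 (quasi-likelihood F-test, group as the only term, R 4.3.3), with Benjamini-Hochberg adjustment over all tested genes. CPM is on TMM-scaled libraries and fold changes are iREC against iEC. Standard errors come from the coefficient and the F statistic. The test was tried on simulated counts. The members and the gene lists were chosen with earlier results of these data known. Named were 5 markers (MMP1, MMP2, MMP14, TIMP1, TIMP3), every changed member, the 3 most abundant of each family, all TIMP genes, ADAM10, ADAM17, ADAM15 and ADAMTS13, and up to 2 changed genes per list and direction. MMP7, MMP9, MMP10, ADAMTS2, ADAMTS6, ADAM33, ADAM11, ADAM28, ADAM19, VWF and further list genes lie outside it and were picked after seeing their values.

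The alternatives tried were other scalings (DESeq2 size factors, upper quartile, library size), no filter, a filter of 1 CPM with a mean count of 50, DESeq2 1.42.0, limma-voom (limma 3.58.1), the replicate letter as a block, protein-coding genes only, each sample left out, and, chosen after seeing the data, iREC E and F left out together. Promoters are from RefSeq (GRCh38.p14); the bases shown lie outside the GENCODE gene model.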

Additional observations from a re-analysis of the deposited data

Results flagged for a closer look

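The 64 groups of 4 samples looked at were 2 for each named member. Of these groups, 2 held a sample far from the other 3 by Dixon's criterion on log2 levels. Chance gives about 1 in 20, which is 3.2 groups. On this scale iREC F was not singled out for ADAMTS3, at 36.4 CPM against 3.66 to 5.57 CPM in the other iREC samples. ADAM15 in iREC C was at 195 CPM, where the other iREC samples had 107 to 110.0 CPM. ADAMTS5 in iREC C was at 61.6 CPM, where the other iREC samples had 23.7 to 26.9 CPM. Both genes kept their call without iREC C.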

How the results depend on the processing

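Over the alternatives, the count of members higher in iREC ran from 9 to 16 (12 in the main analysis) and of members lower from 7 to 11 (9). Leaving out each sample in turn gave 11 to 15 higher, 7 to 10 lower, 3 to 5 MMP, 4 to 5 ADAM, 8 to 12 ADAMTS, 1 to 2 ADAMTSL and 1 to 2 TIMP members changed. The ADAM count was 8 with DESeq2. The ADAMTS count was 7 with limma-voom and 7 without iREC E and iREC F together. The ADAMTSL count was 2 with no filter, DESeq2, limma-voom and the replicate block and 0 with the stricter filter. The TIMP count was 2 with no filter, with DESeq2 and without iREC E and iREC F together. The cause was not tested. Across the single-member alternatives, 507 kept direction and side of the threshold, 26 lost the call, 7 gained it and 12 turned direction; the turns were in ADAM10, ADAMTS9, TIMP2 and ADAM17, which did not pass the test. Without iREC E and iREC F together the log2 fold changes were -0.0022 for ADAM10, 0.14 for ADAMTS9, -0.037 for TIMP2 and -0.018 for ADAM17. With each sample left out they ran from -0.60 to 0.16 for ADAMTS9, -0.14 to 0.41 for TIMP2 and -0.042 to 0.074 for ADAM17, which was -0.016 with no filter and -0.0074 with DESeq2. Same-letter samples correlated at 0.168 (C), -0.0794 (D), 0.0291 (E) and 0.25 (F) in their deviations from the group means. C and F correlated best with their own letter, and D and E with another letter. With 4 samples per group, these values cannot decide whether the letters pair the samples. With the replicate block 12 members were higher, 10 lower and 3334 of all genes changed (3829 without it); among the named members ADAMTSL1 gained the call and ADAMTS3 had an adjusted edgeR p of 0.0632. Depth limits the members under the floor of 3 counts.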
